A study of Mus musculus with 2 samples.

Results

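Foxp3, Ikzf2, Il2ra, Il2rb, Tnfrsf4, Tnfrsf18, Tnfrsf9, Icos and Ccr8 are genes of regulatory T cells and of T cell costimulation. These 9 genes were taken by gene name from both count tables, and all 9 were present among 34400 genes named in either table (31632 for control, 31294 for antibody). Regulatory T cells restrain other lymphocytes. The transcription factor Foxp3 defines their programme, and they take up IL-2 through a receptor that holds the alpha chain Il2ra, the beta chain Il2rb and a shared gamma chain. The TNF receptors Tnfrsf4 (OX40), Tnfrsf18 (GITR) and Tnfrsf9 (4-1BB) and the CD28 relative Icos are costimulatory receptors that activated CD8 and conventional CD4 T cells also use. Inside tumours they are often high on regulatory T cells, as is the chemokine receptor Ccr8.

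Transcripts of single cells were counted in tumours of CT26, an established mouse colon carcinoma line, in mice that received anti-IgG (the control) or SLC7A11-Ab, an antibody to the cystine importer SLC7A11. Dosing was 10 mg/kg, repeated every 2 days once tumours measured 50 to 100 mm³, for both agents. The design text places the cells at the caecum and also speaks of subcutaneous growth. Each group is 1 library. The strain and age of the mice and the number of animals behind a library are not given in the sources used here. No difference between the libraries has a replicate check, so no test was made. The 95% intervals below are exact (Poisson for a level, Clopper-Pearson for a share, conditional binomial for a ratio) and cover counting error only.

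Total depth was 129044329 UMIs (unique molecules) over 13910 barcodes for control and 143658800 over 12153 for antibody. Filters left 12326 control and 10897 antibody cells, at median depths of 7052 and 7201 UMIs, and 39 barcodes occurred in both libraries. Values are given below in this order, control first. The labels call the cells goblet cells, but the goblet cell markers had only 207 and 142 UMIs in all, and 7 and 6 cells held at least 2 of them. Cells were gated by marker UMIs, and none of the 9 genes entered a gate unless a Foxp3 split is named. The control library gave 208 T cells (1.69% of cells) and 51 NK cells, and the antibody library 868 T cells (7.97%) and 128 NK cells. CD8 T cells (a Cd8a or Cd8b1 UMI, no Cd4 UMI) numbered 94 and 530, and CD4 T cells (a Cd4 UMI, no Cd8a or Cd8b1 UMI) only 13 and 70. A wider class, T cells without a Cd8 UMI, held 114 and 323 cells, with or without a Cd4 UMI. It was added after the data were seen, because 101 and 253 T cells had no UMI of either coreceptor. T cells of the antibody library were deeper, at a median of 2432.5 against 1532 UMIs.

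Some transcripts of other cells were more frequent in gates of the antibody library, and others were less so. The MHC class II chain gene Cd74 had a UMI in 6.73% of control and 40.4% of antibody T cells. The 5 macrophage markers summed to 48.7 and 185 UMIs per 1000000 UMIs of the gate (CPM) in CD8 T cells, with all 5 detected in both libraries, and to 85.5 and 274 CPM in NK cells, where C1qb, Csf1r and Adgre1 were at 0 in the control library. NK cells also held 1198 and 951 CPM of the 6 T markers, with Cd3d, Cd3e and Trac at 0 by their gate. The 2 tumour keratins stood at 37.9 and 6.81 CPM in CD8 T cells (14 UMIs in each library), and the 6 NK markers at 195 and 296 CPM in CD8 T cells and 364 and 215 CPM in T cells without a Cd8 UMI. In the other direction, Cd3e had a UMI in 0.324% and 4.53% of cells that had no Ptprc UMI and fell in no gate. These Ptprc-negative cells, 9878 and 5761 in number, are used below as cells that fell in no lymphocyte gate. Only 66.8% and 78.5% of gated T cells had a Ptprc UMI, so some T cells can lie in this class. The Ptprc-negative cells were deep, at medians of 7715.5 and 10272 UMIs. The part that free RNA has in any difference below was not tested.

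The start regions of 4 of the genes are shown, because 3 of them were the only ones in which a motif searched was found and Tnfrsf4 is the close neighbour of Tnfrsf18 (RefSeq, GRCm38.p6, 250 bases before to 50 after a start, plus strand, 5′ to 3′, matches in capitals). Of the 9 genes, 6 had an entry, with 8 start regions. The motifs were NF-kB (GGGA, any base, TT, any base, CC), AP-1 (TGANTCA) and STAT (TTCNNNGAA), each sought on both strands. TNF receptors signal through NF-kB and the IL-2 receptor through STAT5.
Foxp3, second start, chrX:7580233-7580532: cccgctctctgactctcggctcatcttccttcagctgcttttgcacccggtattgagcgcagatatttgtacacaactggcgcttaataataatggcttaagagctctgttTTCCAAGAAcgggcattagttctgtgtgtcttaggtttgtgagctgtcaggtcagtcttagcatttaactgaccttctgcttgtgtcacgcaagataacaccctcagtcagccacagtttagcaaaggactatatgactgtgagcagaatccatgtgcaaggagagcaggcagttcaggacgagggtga
Tnfrsf4, chr4:156013445-156013744: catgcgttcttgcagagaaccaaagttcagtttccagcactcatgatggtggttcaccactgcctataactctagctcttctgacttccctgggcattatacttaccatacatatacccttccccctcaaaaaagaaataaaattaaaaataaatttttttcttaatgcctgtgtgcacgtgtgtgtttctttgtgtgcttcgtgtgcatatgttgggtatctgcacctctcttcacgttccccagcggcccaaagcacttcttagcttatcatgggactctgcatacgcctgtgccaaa
Tnfrsf18, chr4:156026072-156026371: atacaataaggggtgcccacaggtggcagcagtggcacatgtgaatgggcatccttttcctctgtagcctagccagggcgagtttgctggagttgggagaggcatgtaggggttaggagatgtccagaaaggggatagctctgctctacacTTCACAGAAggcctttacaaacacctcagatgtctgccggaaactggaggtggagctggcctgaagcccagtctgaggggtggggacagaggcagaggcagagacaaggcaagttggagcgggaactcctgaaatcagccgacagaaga
Tnfrsf9, second start, chr4:150927749-150928048: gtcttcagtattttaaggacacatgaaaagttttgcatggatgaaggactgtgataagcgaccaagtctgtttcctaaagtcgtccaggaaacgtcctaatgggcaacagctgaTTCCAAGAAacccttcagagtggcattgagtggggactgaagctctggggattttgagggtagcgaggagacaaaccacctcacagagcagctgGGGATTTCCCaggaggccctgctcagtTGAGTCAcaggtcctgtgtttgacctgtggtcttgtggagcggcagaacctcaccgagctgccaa
The second start of Tnfrsf9 held 1 match to each motif: TTCCAAGAA from 136 bases before the start, GGGATTTCCC from 42 bases before it and TGAGTCA from 15 bases before it. The second start of Foxp3 held the same STAT letters, TTCCAAGAA, and Tnfrsf18 held TTCACAGAA. The other 5 regions, that of Tnfrsf4 included, held no match. Among 32851 start regions of the same length, 1.20% held the NF-kB letters, 7.81% the AP-1 letters and 8.30% the STAT letters. A match is a description of letters and shows no binding.

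In mm10 coordinates the genes lie apart except for 1 pair. Tnfrsf4 (chromosome 4, 156013843 to 156016612, plus strand) ends 9551 bases before Tnfrsf18 (156026164 to 156028895, plus strand). Tnfrsf9 lies on the same chromosome at 150914562 to 150946102, plus strand. It is overlapped by Camta1 on the opposite strand, which had 34 and 192 UMIs in T cells. Foxp3 lies on X at 7573644 to 7595245 (plus) and Ikzf2 on 1 at 69531214 to 69687245 (minus). Icos lies on 1 at 60977927 to 61000320 (plus), Il2ra on 2 at 11642807 to 11693193 (plus), Il2rb on 15 at 78479256 to 78495271 (minus) and Ccr8 on 9 at 120092114 to 120094906 (plus). Foxp3 is overlapped by Ccdc22 on the opposite strand, which had 11 and 34 UMIs in T cells. The counts of overlapping genes rest on how the authors' counting assigned strand, which is not given in the sources used here.

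Over whole libraries, all 9 genes had more UMIs in proportion to depth in the antibody library. The share of all genes that were higher over whole libraries is not given here. Icos was 9.72-fold higher (157 and 1703 UMIs, log2 3.28, 95% interval 3.05 to 3.53), Ccr8 7.07-fold (11 and 90 UMIs) and Il2ra 5.42-fold (71 and 431 UMIs). Il2rb and Tnfrsf4 were 4.16-fold and 4.02-fold higher, Tnfrsf18 3.16-fold and Foxp3 2.48-fold. The smallest ratios were those of Ikzf2 at 1.54-fold and Tnfrsf9 at 1.43-fold. In such sums, more T cells and more RNA of a gene per T cell cannot be told apart, and the share of T cells differed as given above. The following values are therefore within gates.

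**Figure D1:**
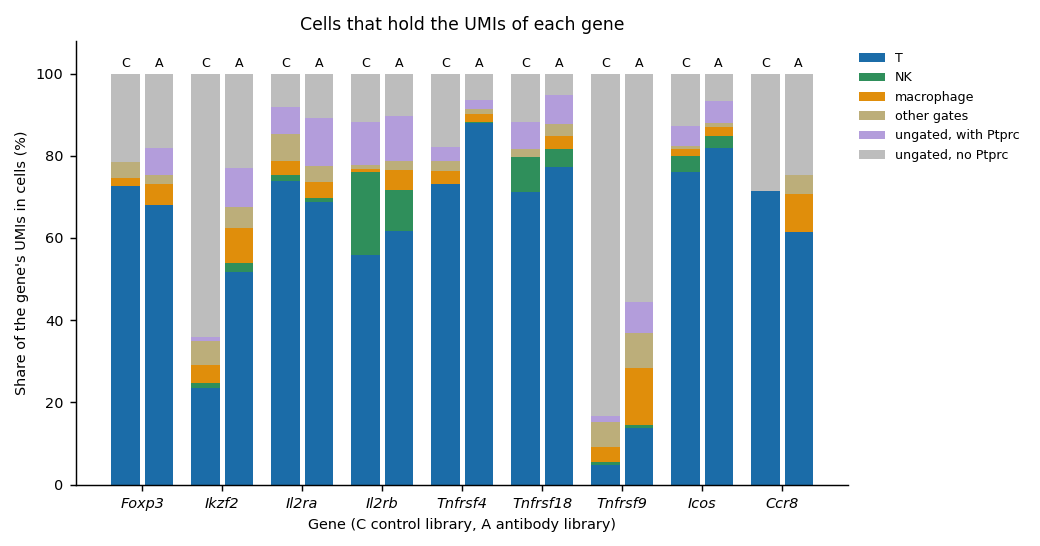
Share of each gene's UMIs in cells (vertical axis, percent) held by T, NK, macrophage, other gated, ungated Ptprc-positive and Ptprc-negative cells, for the control (C) and antibody (A) library. T cells held between 55.9% and 88.1% of the UMIs of 7 genes, while Ptprc-negative cells held most of the UMIs of Tnfrsf9 in both libraries and of Ikzf2 in the control library.

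The genes fell apart by the cells that held their transcripts, as the stacked shares show. T cells held 72.5% and 68.1% of the Foxp3 UMIs, 73.3% and 88.1% of those of Tnfrsf4 and 76.0% and 81.8% of those of Icos. Tnfrsf9 was different: T cells held only 4.77% and 13.9% of its UMIs, and Ptprc-negative cells 83.3% and 55.6%. In Ptprc-negative cells Tnfrsf9 stood at 171 CPM (95% interval 168 to 174) and 227 CPM (224 to 231), and 53.8% and 62.8% of these cells had a UMI of it. At an equal depth of 1000 UMIs per cell the shares were 15.4% and 18.9%, against 0.17% and 0.715% for Il2rb and at most 0.193% for Tnfrsf4, Tnfrsf18, Icos, Il2ra, Foxp3 and Ccr8. Tnfrsf9 transcripts were thus present in many cells without Ptprc, at a share above that of the other 8 genes in the same cells (Ikzf2 at 1.13% and 0.946%). Ikzf2 was intermediate, with 64.1% of its control UMIs but 23.0% of its antibody UMIs in Ptprc-negative cells, at 7.96 and 5.80 CPM. Macrophages held 13.8% of the antibody library's Tnfrsf9 UMIs, with levels of 100.2 and 178 CPM.

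**Figure D2:**
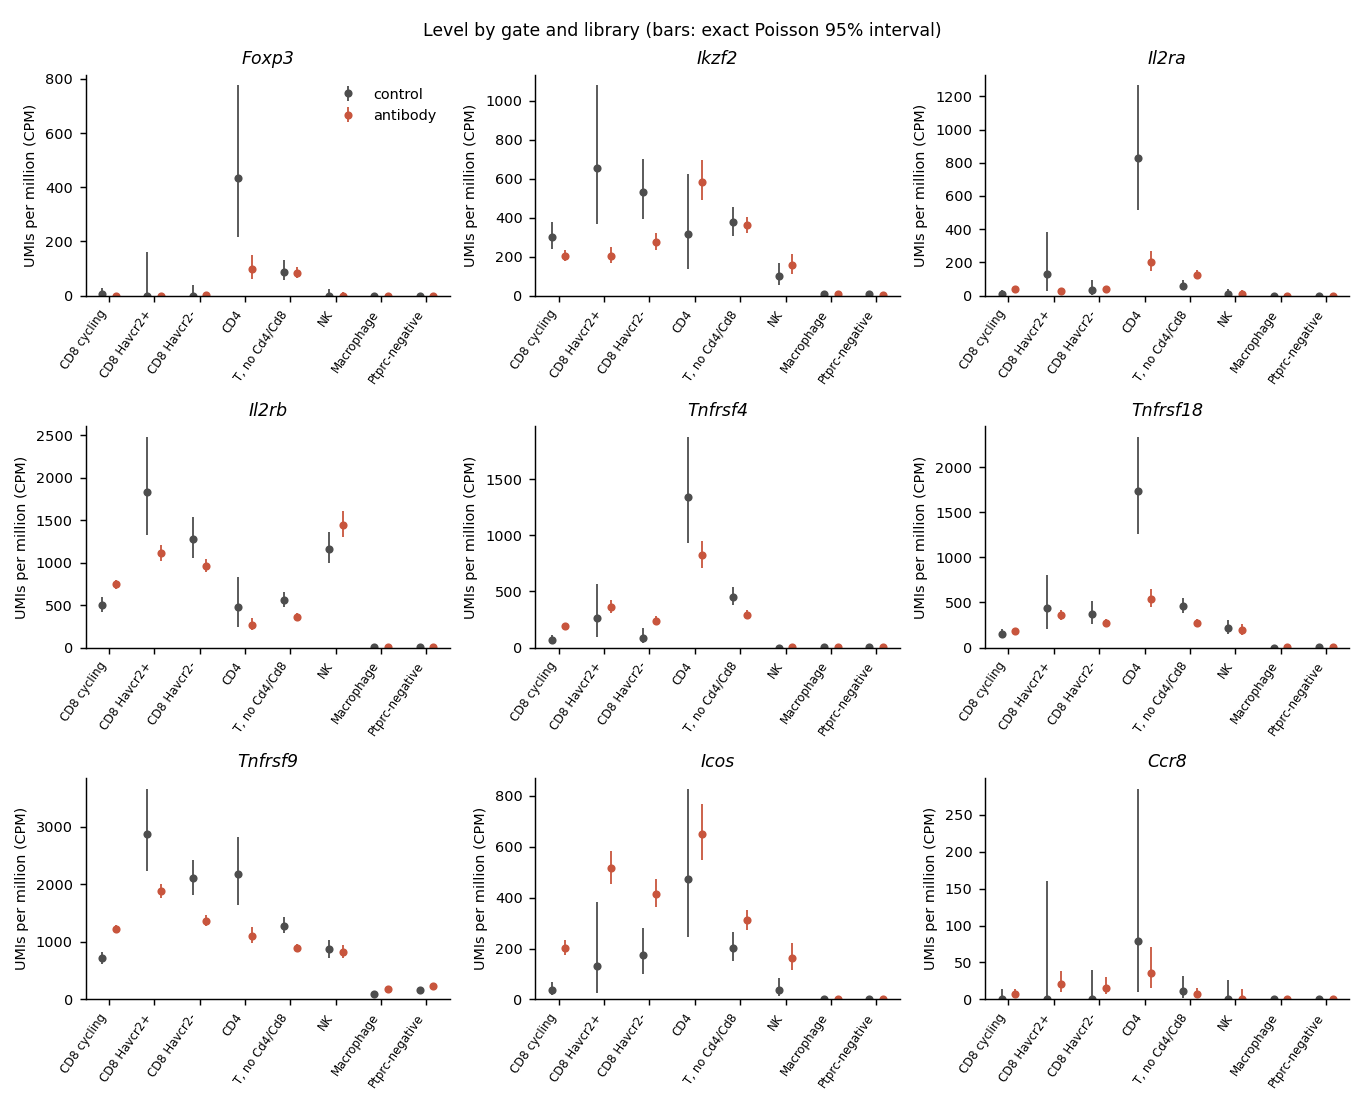
Level of each gene (vertical axis, CPM, with its own scale per panel) in 8 gates for the control and antibody library, with exact Poisson 95% intervals. Foxp3, Il2ra, Tnfrsf4 and Tnfrsf18 were highest in the small CD4 T gate of the control library, Il2rb was high in NK and Havcr2-positive CD8 T cells, and Icos was higher in the antibody library in all 6 lymphocyte gates drawn.

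Foxp3, the lineage factor of regulatory T cells, had 37 UMIs in 21 control T cells and 94 UMIs in 61 antibody T cells. Its transcripts were nearly absent from CD8 T cells (2 and 1 UMIs), and NK cells had 0 in both libraries, which allows a level of up to 26.3 and 14.6 CPM by the exact Poisson interval. Most of its T cell UMIs lay in T cells without a coreceptor UMI, 24 of 37 and 69 of 94. Of the T cells with a Foxp3 UMI, 14 of 21 and 42 of 61 had no coreceptor UMI, and 6 and 17 were CD4 T cells. A gate that needs a Cd4 UMI therefore missed most Foxp3-positive cells in both libraries.

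The share of CD4 T cells with a Foxp3 UMI was 46.2% in the control (6 of 13 cells, 95% interval 19.2 to 74.9) and 24.3% in the antibody library (17 of 70, 14.8 to 36.0). Over the wider class of T cells without a Cd8 UMI the shares were 17.5% (20 of 114, 11.1 to 25.8) and 18.3% (59 of 323, 14.2 to 22.9). At 1000 UMIs per cell that class gave 10.0% (6 of 60) and 12.1% (30 of 247). Ptprc-negative cells had a Foxp3 UMI in 0.101% (0.0486 to 0.186) and 0.434% (0.281 to 0.640) of cells at their own depth, without overlap. Intervals overlapped in each T cell class, so they do not show a difference in the frequency of Foxp3-positive cells among these T cells at this depth. The difference was not tested. The level of Foxp3 was 118 CPM and 87.9 CPM in T cells without a Cd8 UMI (35 and 91 UMIs, log2 ratio -0.44, with an interval that held 0).

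Most of the other genes were found more often beside Foxp3 than apart from it. Among T cells without a Cd8 UMI, thinned to 1000 UMIs, Tnfrsf4 was seen in 75.0% of Foxp3-positive and 16.7% of Foxp3-negative control cells (12 and 48 cells). The antibody library gave 75.0% and 16.4% (52 and 195 cells), so the contrast had nearly the same size in both. Tnfrsf18 was seen in 83.3% against 31.2% of control cells and 71.2% against 30.3% of antibody cells. Il2ra was seen in 41.7% against 2.08% and in 46.2% against 11.8%, and Ikzf2 in 66.7% against 22.9% and in 71.2% against 25.1%. For Tnfrsf4, Tnfrsf18, Il2ra and Ikzf2 the intervals of Foxp3-positive and Foxp3-negative cells did not overlap in the antibody library. Tnfrsf9 followed with 82.7% against 43.1% and Icos with 65.4% against 31.3% in the antibody library, again without overlap. Il2rb did not follow: it was seen in 34.6% of Foxp3-positive and 37.4% of Foxp3-negative antibody cells, and in 41.7% and 45.8% of control cells. Ccr8 was too sparse to place, at 3.85% and 1.54% in the antibody library. The share of all genes whose intervals did not overlap under this split is not given here. Before thinning, Foxp3-positive cells of this class were deeper, at medians of 1200 and 1862 UMIs against 1020 and 1427.5.

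**Figure D3:**
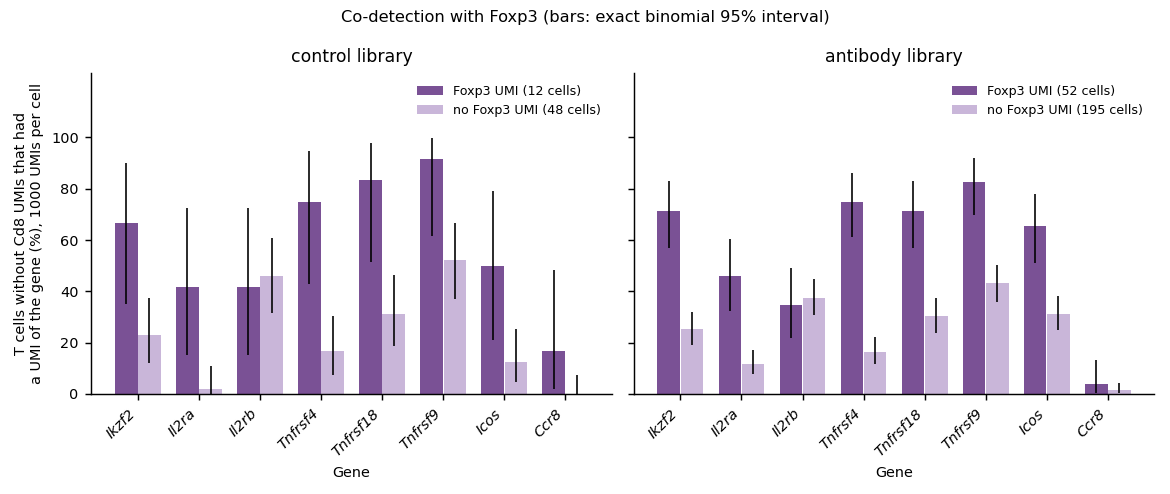
Share of T cells without a Cd8 UMI that had a UMI of each gene (vertical axis, percent, 1000 UMIs per cell) in cells with and without a Foxp3 UMI, by library, with exact binomial 95% intervals. In the antibody library the intervals of cells with and without Foxp3 overlap for Il2rb and Ccr8 and not for the other genes drawn. The same split over all genes is not given here.

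Per cell, T cells with Foxp3 held UMIs of 4.54 of the 8 other genes on average in control and 4.46 in antibody cells at 1000 UMIs. T cells without Cd8 or Foxp3 UMIs held 1.83 and 1.97, CD8 T cells 2.33 and 2.28 (Foxp3 left out), and NK cells 1.39 and 1.64. Ptprc-negative cells held 0.168 and 0.211. The averages thus differed more between kinds of cell than between the libraries.

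In CD8 T cells, 3 of the 8 genes with at least 20 UMIs were at least 2-fold higher in the antibody library with an interval that left out 0, and none was lower. Over all 8844 genes with as many UMIs in these cells, 19% were called by the same rule, 8.38% higher and 10.6% lower. The 3 were Icos, Tnfrsf4 and Ccr8. The 8 genes had a median log2 ratio of 0.36, against -0.17 for all genes. Cycling cells held 254406 of 369595 UMIs of CD8 T cells in the control and 1010188 of 2057016 in the antibody library. Sums over CD8 T cells therefore weigh cycling cells differently, and the part of this in the ratios was not tested.

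Icos, a costimulator induced on activated T cells, stood at 75.8 CPM in control CD8 T cells (28 UMIs, 95% interval 50.3 to 109) and at 334 CPM in antibody CD8 T cells (688 UMIs, 309.9 to 360.4). The log2 ratio was 2.12 (1.60 to 2.74). A UMI was found in 23.4% and 63.2% of cells, and in 11.8% (5.79 to 20.6) and 32.0% (27.9 to 36.2) at 1000 UMIs per cell, so the difference in share was also present at equal depth. Cycling CD8 T cells gave 2.45 (9 and 205 UMIs), non-cycling cells with a Havcr2 UMI 1.76 (3 and 249 UMIs) and non-cycling cells without one 1.22 (16 and 234 UMIs). At full depth Icos was thus higher in the antibody library in each of the 3 subsets. At 1000 UMIs per cell its shares were 3.03% (0.08 to 15.8) and 20.3% (14.2 to 27.5) in cycling cells. They were 11.1% (0.28 to 48.2) and 40.8% (32.9 to 49.0) in Havcr2-positive and 18.6% (8.39 to 33.4) and 34.1% (27.7 to 41.0) in Havcr2-negative cells. These intervals overlapped in each subset. The level of Icos outside the lymphocyte gates was 1.30 CPM in Ptprc-negative cells and 1.34 CPM in macrophages of the antibody library.

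Tnfrsf4 stood at 86.6 CPM in control (32 UMIs) and 245 CPM in antibody CD8 T cells (503 UMIs), a log2 ratio of 1.48 (0.98 to 2.06). Its share of cells was 22.3% and 45.5%, and 7.06% (2.63 to 14.7) and 19.7% (16.3 to 23.4) at equal depth. The ratio was 1.40 in cycling and 1.38 in Havcr2-negative CD8 T cells. Havcr2-positive cells gave 0.36 (-0.68 to 1.93) from 6 and 175 UMIs, where the control had 9 cells. Its neighbour Tnfrsf18 stood at 219 and 249 CPM (81 and 512 UMIs, 0.18, -0.16 to 0.54) in CD8 T cells. Within antibody CD8 T cells at equal depth, Tnfrsf18 was seen in 29.3% of cells with a Tnfrsf4 UMI (23.6 to 35.5) and 19.3% of the others (14.8 to 24.5). These intervals overlapped slightly, and the difference was not tested.

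Ccr8 had 0 UMIs in control CD8 T cells and 26 in 25 antibody cells (12.6 CPM). Against a floor of 3 counts in the control sum it was at least 1.56-fold higher, so it counts as 2-fold different only through the 0.5 added to each count. None of 94 control cells had a UMI, where 3 counts would be a share of 3.19% and the exact interval reaches 3.85%. The share of antibody cells was 4.72% (3.08 to 6.88), so the intervals overlapped. At 1000 UMIs per cell the shares were 0 of 85 (up to 4.25%) and 1.36% (0.55 to 2.79), and a difference in Ccr8 was not detectable.

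Ikzf2, which encodes Helios, was the 1 gene of the 8 with a ratio below 0. It stood at 381 CPM in control CD8 T cells (141 UMIs) and 225 CPM in antibody CD8 T cells (462 UMIs), with a log2 ratio of -0.77 (-1.04 to -0.48). A UMI was seen in 64.9% and 41.1% of cells, and in 41.2% (30.6 to 52.4) and 19.3% (16.0 to 23.0) at equal depth. The ratio was -0.57 in cycling, -1.72 in Havcr2-positive and -0.95 in Havcr2-negative cells. It passed 2-fold without doublet removal (-1.08), without the comparison of T with other marker UMIs (-1.07) and in thinned cells (-1.36). At full depth Helios transcripts were thus sparser in each subset of antibody CD8 T cells, the reverse of Icos.

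Il2rb and Tnfrsf9 were the most widely detected of the set in CD8 T cells, and at full depth their ratios differed in sign between cycling and non-cycling cells. Il2rb, the beta chain of the IL-2 and IL-15 receptors, had 774 and 889 CPM (286 and 1828 UMIs, 0.20, 0.02 to 0.38). In cycling cells its ratio was 0.58 (0.31 to 0.87), in Havcr2-negative cells -0.41 (-0.70 to -0.11) and in Havcr2-positive cells -0.74 (-1.18 to -0.24). Tnfrsf9 had 1199 and 1419 CPM (443 and 2919 UMIs, 0.24, 0.10 to 0.39), with 0.77 in cycling cells (0.55 to 1.00), -0.63 in Havcr2-negative cells (-0.85 to -0.39) and -0.62 in Havcr2-positive cells (-0.97 to -0.23). Thinned to 1000 UMIs, all CD8 T cells gave -0.32 for Il2rb and -0.51 for Tnfrsf9, so neither gene kept a direction over all CD8 T cells. Nor did the higher level in cycling cells remain at that depth. Tnfrsf9 was then seen in 75.8% of cycling control cells (51 UMIs in 33 cells, 57.7 to 88.9) and 60.1% of cycling antibody cells (216 UMIs in 153 cells, 51.9 to 68.0). Il2rb was seen in 51.5% (37 UMIs) and 53.6% (137 UMIs) of the same cells. Havcr2-positive cells made up 14.8% of non-cycling CD8 T cells in the control (9 of 61) and 41.0% in the antibody library (154 of 376). This split was made at full depth, where CD8 T cells had medians of 1883.5 and 3038.5 UMIs. The part of depth in these shares was not tested. Il2ra, the alpha chain, was sparse at 9 and 73 UMIs (0.48, -0.46 to 1.73).

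**Figure D4:**
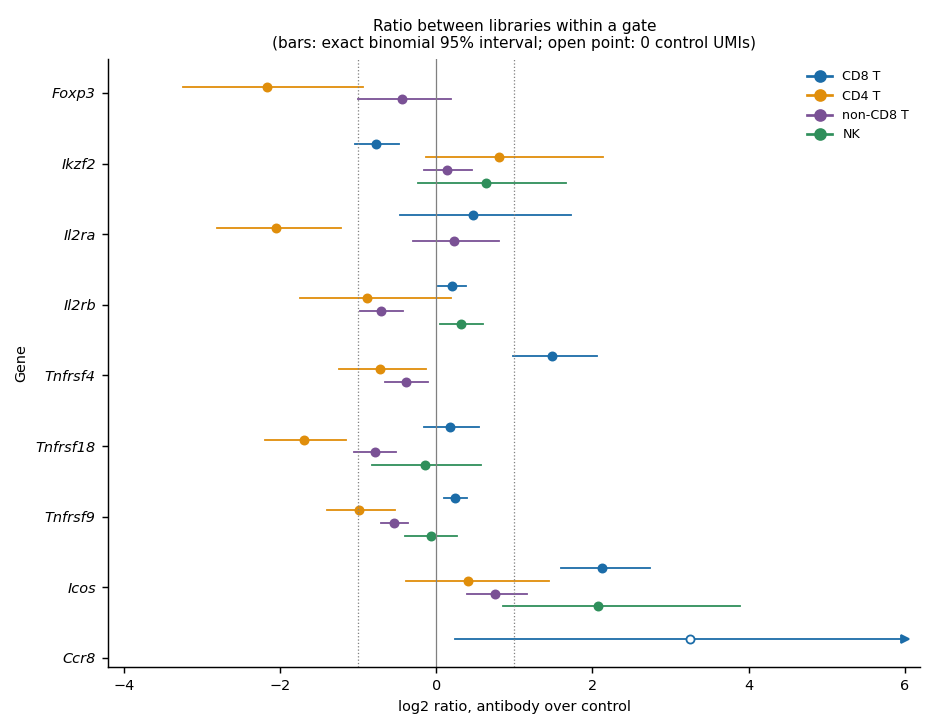
Log2 ratio of antibody over control (horizontal axis) for each gene in CD8 T, CD4 T, T cells without a Cd8 UMI (non-CD8 T) and NK cells, where both libraries together had at least 20 UMIs. Lines are exact binomial 95% intervals, the open point marks 0 control UMIs and an arrow an interval without upper end. Icos lies right of 0 in all 4 gates, with an interval that leaves out 0 in all but the CD4 T gate.

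In CD4 T cells, 3 of 8 genes were at least 2-fold lower in the antibody library and none higher. Of all 2250 genes with as many UMIs, 12.2% were called, 5.38% higher and 6.84% lower. The 3 were Foxp3 (11 and 22 UMIs, 435 and 98.9 CPM, log2 -2.17, -3.24 to -0.94), Il2ra (21 and 45 UMIs, 830 and 202 CPM, -2.05, -2.81 to -1.21) and Tnfrsf18 (44 and 120 UMIs, 1738 and 539 CPM, -1.70, -2.20 to -1.16). These ratios rest on 13 control cells, of which 6 had a Foxp3 UMI. In T cells without a Cd8 UMI none of 8 genes was called, where 12.2% of all 7460 genes were (7.44% higher, 4.72% lower). There Il2ra stood at 121 and 143 CPM (36 and 148 UMIs, 0.22, -0.30 to 0.81) and Tnfrsf18 at 570 and 330 CPM (169 and 342 UMIs, -0.79, -1.06 to -0.51). The lower values of the CD4 gate thus did not extend to the wider class as 2-fold differences with the gates as defined. Without the comparison of T with other marker UMIs they did for Foxp3 (-1.60) and Tnfrsf18 (-1.98).

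Among T cells without a Cd8 UMI, Icos stood at 226 and 384 CPM (67 and 397 UMIs, 0.76, 0.39 to 1.16). Tnfrsf4 stood at 529 and 405 CPM (157 and 419 UMIs, -0.39, -0.65 to -0.11), a direction opposite to that in CD8 T cells (the difference was not tested). Tnfrsf9 gave -0.54 (-0.71 to -0.37) and Il2rb -0.71 (-0.98 to -0.43), while Ikzf2 gave 0.14 (-0.16 to 0.46). At equal depth Icos was seen in 12 of 60 (95% interval 10.8% to 32.3%) and 38.5% (32.4 to 44.8) of these cells, and Tnfrsf4 in 28.3% and 28.7%. The Tnfrsf4 difference in level was thus not present in the share of thinned cells. With the stricter cell filter Tnfrsf4 turned to 0.34 and Foxp3 to 0.20, so the direction of both depended on that filter, and Icos gave 1.31. Without the comparison of T with other marker UMIs (120 and 408 cells) all 8 ratios of this class were below 0: Icos turned to -0.46, Ikzf2 to -1.04 and Il2ra to -0.93, and Tnfrsf4 (-1.65), Il2rb (-1.87) and Tnfrsf9 (-1.37) were past 2-fold lower. The share of all genes below 0 under this setting is not given here, so whether the 8 differ from other genes is not known. The ratios of this class therefore depend on how T cells were told from other cells. In the T cells of this class that had no Cd4 UMI, Il2ra stood at 55.3 and 127 CPM (15 and 103 UMIs, 1.16, 0.41 to 2.09), while its ratio in CD4 T cells was negative.

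Within T cells that had a Foxp3 UMI, 21 and 61 in number, Icos stood at 528 and 650 CPM (26 and 150 UMIs, 0.28, -0.31 to 0.96). Tnfrsf18 stood at 1584 and 671 CPM (78 and 155 UMIs, -1.24, -1.64 to -0.83), Il2rb at 548 and 221 CPM (27 and 51 UMIs, -1.32, -2.01 to -0.58) and Tnfrsf4 at 1624 and 996 CPM (80 and 230 UMIs, -0.71, -1.08 to -0.32). Ikzf2 was similar at 893 and 1009 CPM (0.16, -0.29 to 0.68). Tnfrsf9 gave -0.34 (-0.64 to -0.03). These levels were lower for the 3 TNF receptors and Il2rb and not for Icos or Ikzf2. Genes outside the set also differed in these cells. The T marker Trac (1239 and 710 CPM, -0.81, -1.23 to -0.35) and the inhibitory receptor Ctla4 (-0.49, -0.79 to -0.17) were lower. Penk was higher (1.18, 0.46 to 2.09). How many of all genes were lower in these cells is not given here. At 1000 UMIs per cell (13 and 54 cells) Tnfrsf4 was seen in 69.2% and 74.1% of these cells, Tnfrsf18 in 76.9% and 70.4% and Tnfrsf9 in 92.3% and 81.5%. The intervals overlapped for each, so the lower levels of these 3 receptors were not shown by the shares. The control cells were the shallower ones, and this gate needs a UMI of Foxp3, so its own level there is set by the gate.

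In NK cells, 1 of 5 genes with at least 20 UMIs was called, Icos, with 35.6 CPM from 5 control UMIs and 163 CPM from 41 antibody UMIs, a log2 ratio of 2.07 (0.85 to 3.89). Of all 3319 genes, 15.8% were called, 9.85% higher and 5.97% lower. Thinned to 1000 UMIs the share of NK cells with Icos was 6.52% (1.37 to 17.9) and 16.0% (9.63 to 24.4), and the ratio of 1.27 (interval from -0.31) was no longer called. Il2rb, through which NK cells receive IL-15, was the most frequent of the set in NK cells, in 88.2% and 83.6% of cells, at 1162 and 1447 CPM (0.31, 0.05 to 0.59). Tnfrsf9 stood at 870 and 829 CPM and Tnfrsf18 at 214 and 194 CPM, with intervals of the ratio that held 0. Tnfrsf4 had 0 and 1 UMIs in NK cells, while its neighbour Tnfrsf18 had 30 and 49. Of this neighbouring pair, Tnfrsf18 was thus seen in NK cells and Tnfrsf4 hardly at all.

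**Figure D5:**
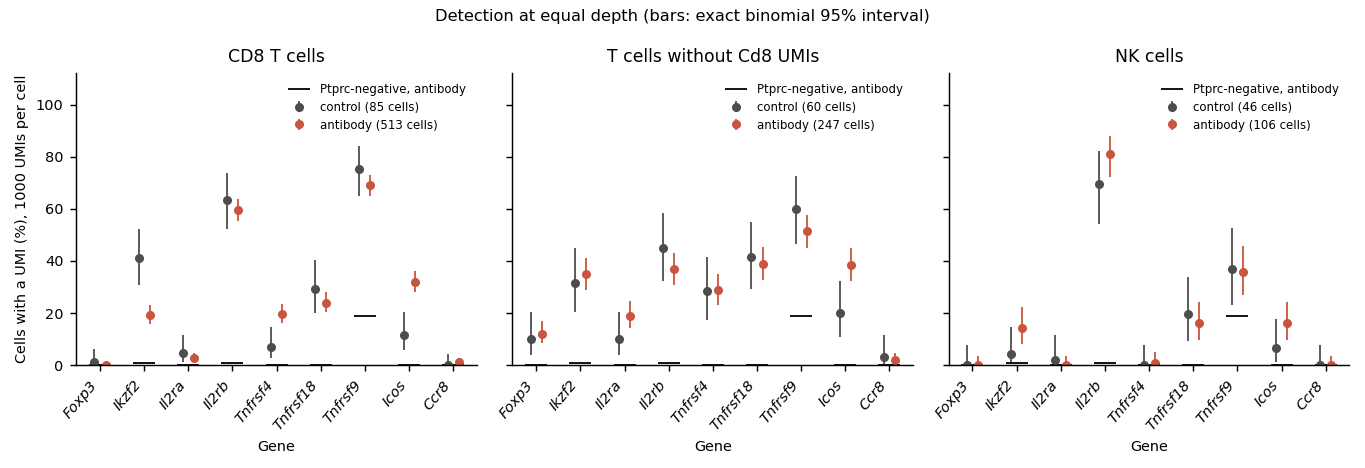
Share of cells with a UMI of each gene (vertical axis, percent) after each cell was thinned to 1000 UMIs, in CD8 T cells, T cells without a Cd8 UMI and NK cells of both libraries, with exact binomial 95% intervals and the share in Ptprc-negative antibody cells as a black line. In CD8 T cells the intervals of the libraries do not overlap for Ikzf2, Tnfrsf4 and Icos, and Tnfrsf9 is the gene with a visible share in Ptprc-negative cells. The share of all genes without overlap is not given here.

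Over all T cells, 1 of the 9 genes was called, Icos (95 and 1118 UMIs, 143 and 355 CPM, 1.31, 1.01 to 1.63), where 15.8% of all 10134 genes were (7.86% higher, 7.93% lower). Outside the lymphocyte gates, 4 of 8 genes were called higher in Ptprc-negative cells: Icos (2.78), Il2ra (2.98), Il2rb (2.29) and Foxp3 (1.44), all at 5.33 CPM or less. Of all 18503 genes there, 15.7% were called, 11.9% higher and 3.81% lower. In macrophages 3 of 6 were called higher: Icos (1.86), Il2rb (3.02) and Tnfrsf18 (0 and 36 UMIs, 3.57-fold against a floor of 3 counts). Of all 14270 genes in macrophages, 15% were called (8.89% higher, 6.11% lower). The 6 T markers stood at 2.01 and 15.6 CPM in the Ptprc-negative cells.

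Ordered by level, the genes had different patterns over the 6 lymphocyte gates of the antibody library that share no cell (cycling, Havcr2-positive and Havcr2-negative CD8 T, CD4 T, T cells without a coreceptor UMI, and NK). Il2rb was highest in NK cells (1447 CPM, 1302 to 1603), then Havcr2-positive (1108, 1016 to 1206), Havcr2-negative (963, 884 to 1047) and cycling CD8 T cells (742, 690.2 to 798). It was lower in T cells without a coreceptor UMI (358 CPM) and CD4 T cells (265 CPM), and of these neighbours the Havcr2-positive and Havcr2-negative gates had overlapping intervals, as did the last pair. Tnfrsf4 ran from CD4 T cells (822 CPM) through Havcr2-positive CD8 T cells (362 CPM), T cells without a coreceptor UMI (290.5 CPM) and Havcr2-negative (239 CPM) to cycling CD8 T cells (191 CPM) and NK cells (1 UMI, 3.96 CPM). Icos ran from CD4 T cells (652 CPM, 549.9 to 767) and Havcr2-positive CD8 T cells (516 CPM, 454 to 584), which overlapped, to cycling CD8 T cells (203 CPM) and NK cells (163 CPM). Tnfrsf18 ran from CD4 T cells (539 CPM) to cycling CD8 T cells (185 CPM), and Il2ra from CD4 T cells (202 CPM) through T cells without a coreceptor UMI (127 CPM) to at most 37.6 CPM in the others. Tnfrsf9 was highest in Havcr2-positive CD8 T cells, at 2881 CPM (control) and 1885 CPM (antibody). Ikzf2 was highest in CD4 T cells of the antibody library (584 CPM), but in Havcr2-positive CD8 T cells of the control library (655 CPM, 366 to 1080), with intervals that overlapped those of other gates.

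Up to 3 genes whose level was most like that of each member were named by Pearson's r of log2(CPM + 10) over 17 gate and library points among 7987 genes. The points share libraries and overlap in cells, so r is a description. Tnfrsf4 was most like Cd5 (0.97), a T cell surface inhibitor, then Penk (0.93) and Vps54 (0.93). Il2ra was most like Penk (0.93), Izumo1r (0.93), the folate receptor 4 of regulatory T cells, and Ramp3 (0.92). Icos was most like Hif1a (0.95), Lyz2 (0.94) and the inhibitory CD28 relative Ctla4 (0.94). Lyz2 is the lysozyme gene of myeloid cells, and its ratio in CD8 T cells was 2.24, in Ptprc-negative cells 1.37 and in NK cells 1.82. Its level was 133 CPM in Ptprc-negative antibody cells, where Icos was at 1.30 CPM. Foxp3 was most like Got1 (0.87), Hspb8 (0.83) and Zscan26 (0.82), Ikzf2 like Sh3rf1, Glud1 and Snrnp200 (0.89 to 0.90) and Il2rb like Atp8b4, Ptpn22 and Litaf (0.94 each). Tnfrsf18 was nearest to Pgs1, Niban1 and Rmdn3 (0.88 to 0.89), Tnfrsf9 to Gm16242, Foxn3 and Plekhb2 (0.80 to 0.88) and Ccr8 to Tiam1 (0.94) and Aebp2 (0.92).

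Genes around the set were read from 6 lists, with the same rule for a call and beside the shares of all genes given above. Of 9 IL-2 receptor and signalling genes, 8 were measured in CD8 T cells, where 3 were higher and 1 lower (median 1.03). The kinases Jak1 (122 and 297 CPM, 1.27) and Jak3 (2 and 76 UMIs, 2.46) and the factor Stat5a (5 and 69 UMIs, 1.18), the last named after its value was seen, were higher, and the survival gene Bcl2 was lower (411 and 176 CPM, -1.22). In Ptprc-negative cells Jak1 and Jak3 also had positive ratios, 0.90 and 2.53, while Stat5a had -0.02 and Bcl2 -0.37. Of 9 measured in T cells without a Cd8 UMI, Il2 was higher (1 and 23 UMIs, 2.17, 0.10 to 8.09) and none lower (median -0.14). CD4 T cells held 1 and 22 of these Il2 UMIs, and within them its ratio was 0.77 (-1.31 to 6.69), so it was not called. Of 3 genes in NK cells (median 0.20) and 6 in CD4 T cells (median 0.10) none was called.

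Of 20 further regulatory T genes, 14 were measured in CD8 T cells, where 5 were higher and 1 lower (median 0.78). The inhibitory receptor Ctla4, named after its value was seen, stood at 225 and 649 CPM (83 and 1334 UMIs, 1.52), and at 684 and 705 CPM in T cells without a Cd8 UMI (0.04). In Ptprc-negative cells it had 45 and 160 UMIs (2.11). The transcription factor Batf (1.55), the cytokine Tgfb1 (1.94), the decoy receptor Il1r2 (1 and 46 UMIs, 2.48) and the IL-33 receptor Il1rl1 (1.01, also named afterwards) were the other 4, and the ectoenzyme Nt5e was lower (-1.59). Il1rl1 stood at only 46.0 and 94.8 CPM in CD8 T cells. It was higher in Ptprc-negative cells (301 and 442 CPM, 0.55) and in macrophages (157 and 330 CPM, 1.07). In T cells without a Cd8 UMI 2 of 18 were higher, the growth factor Areg (2.45) and Il1r2 (1.44), and none lower (median 0.25). Areg was also higher in Ptprc-negative cells (2.19). In NK cells 2 of 5 were higher (Ctla4 1.09, Batf 2.07) and 2 lower (Klrg1 -1.80, Il1rl1 -1.74), and in CD4 T cells none of 9 was called (median -0.94).

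Of 11 other TNF receptors, Cd27 was higher (1.09) and Ltbr lower (-1.99) among 6 measured in CD8 T cells (median 0.13), and Tnfrsf13b was higher (1 and 22 UMIs) among 7 in T cells without a Cd8 UMI (median -0.05). None of 2 was called in NK or in CD4 T cells (medians 0.28 and -0.60). Among 12 TRAF and NF-kB genes, 3 of 12 were higher in CD8 T cells (median 0.05), 2 of 12 in T cells without a Cd8 UMI (0.33), 3 of 7 in NK cells (0.48) and 1 of 8 in CD4 T cells (0.54), and none was lower. The NF-kB inhibitor Nfkbia stood at 384 and 1735 CPM in CD8 T cells (2.17) and was as much higher in Ptprc-negative cells (2.41) and macrophages (2.54), so its difference was not particular to T cells. Rel (2.31) and the inhibitor Tnfaip3 (1.26) were the others in CD8 T cells, against 1.25 and 1.24 in Ptprc-negative cells.

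Ligands of the receptors were mostly sparse in lymphocytes: 5 of 9 were measured in CD8 T cells, 3 in T cells without a Cd8 UMI, and 1 each in NK and CD4 T cells. The Ccr8 ligand Ccl8 was higher in all 4 gates (log2 4.78 in CD8 T, 4.65 in T cells without a Cd8 UMI and 4.03 in NK cells). In CD4 T cells it had 0 against 80 UMIs, 3.03-fold against a floor of 3 counts, with an interval from log2 1.27. It was also higher in Ptprc-negative cells (3.76) and in macrophages (592.5 and 2335 CPM, 1.98), which had the highest level. Ccl1, the other Ccr8 ligand, had 1 and 49 UMIs in CD8 T cells (2.57) but 33 and 0 UMIs in T cells without a Cd8 UMI. The latter was 38.4-fold lower in the antibody library against a floor of 3 counts, with an interval that ended at log2 -4.88. Of 4 CD28 family genes, none was called among 4 in CD8 T cells (median 0.42), 3 in T cells without a Cd8 UMI (-0.06) and 1 in NK cells (-0.09). In CD4 T cells the inhibitory receptor Pdcd1 was lower among 2 (11 and 34 UMIs, -1.55; median -0.29).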

How the data were processed

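Single cells of each tumour sample were captured on the 10x Genomics platform, per the labels. The deposited values are UMI counts per gene and barcode, made with Cell Ranger 7.2.0 on mm10, with Seurat also named, per the submitters' processing notes. Cells needed 200 genes, 500 UMIs and a mitochondrial share under 20%, and the highest Scrublet scores (scanpy 1.11.5) were removed at 0.8% per 1000 cells, 1537 control and 1164 antibody barcodes. No correction for free RNA was made. A T cell had a Cd3d, Cd3e or Cd3g UMI, at least 2 of 6 T markers and more T marker UMIs than UMIs of each other lineage. An NK cell had at least 2 of 6 NK markers, no Cd3d, Cd3e or Trac UMI and more NK marker UMIs than of each other lineage.

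Counts were summed per gate and library. The log2 ratio is antibody over control of (count + 0.5) per gate total. A gene with at least 20 UMIs over both libraries was called at a log2 ratio of at least 1 in size with a 95% interval that left out 0, and 0 was bounded with a floor of 3 counts. Thinning to 1000 UMIs left out shallower cells. All members are named in the text. From the 6 lists, names are the 3 highest and 3 lowest ratios per list and gate, unless said otherwise. The members and lists were chosen with earlier results of these data known. The code was tested on simulated data. Python 3.11.15, numpy 2.4.6, scipy 1.17.1 and pandas 2.3.3 were used. Each group is 1 library, so nothing could be paired. Alternatives were other cell filters, gates, scalings and depths. Gates without Cd8 UMIs, the Foxp3 split of them and the Ptprc-negative cells were chosen after seeing the data. A gene among those most like Ccr8 and a T cell gate are not reported here.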

Additional observations from a re-analysis of the deposited data

Results flagged for a closer look

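Tnfrsf4 had a log2 ratio of 1.48 (0.98 to 2.06) in CD8 T cells and -0.72 (-1.24 to -0.13) in CD4 T cells, with intervals on opposite sides of 0. The difference was not tested. Among the alternatives its CD8 value stayed between 1.16 and 1.75, while its CD4 value lay between -0.82 and 1.84, the highest with CD4 T cells defined from 2 Cd4 UMIs (3 and 20 cells).

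Tnfrsf9 had 0.24 (0.10 to 0.39) in CD8 T cells and -0.98 (-1.40 to -0.53) in CD4 T cells, again on opposite sides of 0 and not tested. In CD8 T cells thinned to 1000 UMIs its value was -0.51, on the same side as in CD4 T cells.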

How the results depend on the processing

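The count of members called moved in CD4 T cells from 3 to 5 with a stricter cell filter (7 and 58 cells) and to 0 with T cells without a Cd8 UMI in place of CD4 T cells, and in NK cells from 1 to 0 in cells thinned to 1000 UMIs. The share of CD4 T cells with Foxp3 moved from 24.3% to 10.3% in the antibody library in thinned cells, and from 46.2% to 17.5% in the control with T cells without a Cd8 UMI. The cause was not tested. The other 37 settings of these results kept the count within 1.5 times or the share within its interval, but not always the names: in CD8 T cells Ikzf2 stood in place of Ccr8 in 3 settings, and from 2 Cd4 UMIs the CD4 calls were Tnfrsf4 and Icos, both higher. Icos and Tnfrsf4 were called in CD8 T cells under all 9 alternatives run on them. Without the comparison of T with other marker UMIs, T cells without a Cd8 UMI gave lower ratios for the members measured: Icos turned from 0.76 to -0.46, Ikzf2 from 0.14 to -1.04 and Il2ra from 0.22 to -0.93, and Foxp3 moved from -0.44 to -1.60 and Tnfrsf18 from -0.79 to -1.98. The ratios of all genes under this setting are not given here. Median-of-ratios scaling raised every log2 ratio by 0.28 in CD8 T, 0.34 in CD4 T and 0.24 in NK cells, and changed the calls over all CD8 T genes from 741 higher and 936 lower to 1106 and 574, those of CD4 T cells from 121 and 154 to 214 and 65, those of NK cells from 327 and 198 to 470 and 98, and those of T cells without a Cd8 UMI (shift 0.24) from 555 and 352 to 812 and 167. Depth limits Ccr8, Il2ra and Foxp3 most. No paired analysis was possible because each group has 1 library.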

Other observations

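Within antibody CD8 T cells thinned to 1000 UMIs, Tnfrsf4 was seen in 23.1% of cells with an Icos UMI (18.6 to 27.9, 334 cells) and in 13.4% of cells without one (8.78 to 19.3, 179 cells). Il2rb was seen in 64.1% and 51.4% of the same cells, and Ikzf2 in 19.8% and 18.4%. The intervals overlapped for all 3 genes, which does not show that the shares were equal. The differences were not tested.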
